A study of Mus musculus with 2 samples.

Results

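The genes described here are 7: the early growth response transcription factors Egr1, Egr2 and Egr3, their corepressors Nab1 and Nab2, and the immediate-early response genes Ier2 and Ier3. They were taken by name from the 32285 genes of each count matrix. All 7 were found in both libraries, and all 7 passed the minimum of 50 unique molecular identifiers (UMIs, the tags that let each captured transcript be counted once) in both libraries together. A barcode was read as a cell if it showed 500 genes or more and no more than 10% of its UMIs were mitochondrial, which left 8394 cells of the WT library and 7087 cells of the Pac1-/- library.

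Immediate-early genes are transcribed within minutes of a signal, without new protein synthesis. In lymphocytes the ERK kinases phosphorylate ELK factors bound beside serum response factor (SRF), and this switches on EGR1, EGR2 and EGR3, zinc finger factors that bind GC-rich promoter sites. NAB1 and NAB2 bind the EGR proteins and recruit the CHD4 remodeling complex, so that EGR factors also repress, and Nab2 is itself a known EGR target that closes a feedback loop. In T cells EGR1 takes part in the transcription of Il2 and Tnf, whereas EGR2 and EGR3 are known for anergy and restraint. IER2 is a nuclear protein, and IER3 is a stress-induced protein linked to cell survival and ERK signaling. Group 2 innate lymphoid cells (ILC2s) are tissue lymphocytes that release IL-5 and IL-13, and PAC1, the product of Dusp2, is a nuclear phosphatase of MAP kinases.

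In the GENCODE annotation of GRCm38 all 7 are protein-coding genes. Egr1 lies on the plus strand of chromosome 18 (34859823 to 34864984), Egr2 on the plus strand of chromosome 10 (67535475 to 67542188) and Egr3 on the plus strand of chromosome 14 (70077203 to 70082614). Nab1 spans the minus strand of chromosome 1 (52457294 to 52500679) and Nab2 the minus strand of chromosome 10 (127660918 to 127668568). Ier2 is a gene of 1 exon on the minus strand of chromosome 8 (84661331 to 84662852), and Ier3 has 2 exons on the plus strand of chromosome 17 (35821684 to 35822923). Nab2 overlaps Stat6, Nemp1 and an antisense RNA on the opposite strand, and the 3′ ends of Nab2 and Stat6 meet. The other 6 members overlap no annotated gene.

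The study compared WT mice with Pac1-/- mice, in which the gene encoding PAC1 is deleted, both on a C57BL/6J background and 6 to 8 weeks old. Lung ILC2s were sorted as live lineage-negative CD90.2+ ST2+ Sca-1+ cells after enzymatic digestion of the tissue, and the cells of 4 to 5 mice of a genotype were pooled into 1 droplet library each, with no label for the mouse. Each genotype was therefore 1 sample, cells are not replicates, and no p-value is given. Intervals are exact 95% intervals (Poisson for UMIs, Clopper-Pearson for shares of cells) and cover counting error only. The passing cells held 54579034 UMIs in WT and 58338886 in Pac1-/-, with medians of 4186.5 and 5577 UMIs per cell. Because depth differed, shares of cells were compared after a random draw of 1500 UMIs from each cell, here called thinning, which kept 7634 WT and 6564 Pac1-/- cells and left out 760 and 523 shallower ones. Dusp2 was counted 1419 times in WT and 5 times in Pac1-/-. At least 2 of 9 ILC2 markers stood in 99.1% of cells in WT and 98.97% in Pac1-/-, and Gata3 in 88.8% and 90.7%. Cd4 and Csf1r were at 0 or 1 UMI in each library, but other T cell and myeloid markers were counted more often. Cd3e had 573 UMIs in WT and 343 in Pac1-/-, Trac 441 and 178, and Lyz2 67 and 327. The B cell marker Ighm stood in 23.8% and 33.5% of cells, and the mast cell or basophil marker Cpa3 in 5.44% and 11.6%. At least 2 markers of B, myeloid, mast or basophil, stromal, endothelial or epithelial cells stood in 168 WT and 343 Pac1-/- barcodes. These are called barcodes with markers of another cell type below. Markers of T cells, NK cells and red cells did not count toward them. At least 2 T cell markers stood in 71 WT and 26 Pac1-/- barcodes, and at least 2 red cell markers in 70 and 216. Between the libraries, 15 passing barcodes were shared.

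Promoter windows, 250 bases before to 50 bases after a RefSeq (GRCm38.p6) start site, were taken for 4 of the 7 members. Egr1, Egr3 and Ier2 were left without a window here, which does not show that RefSeq lacks one. As examples of the motifs found, 4 windows are printed. Capitals mark matches to 4 motifs searched on both strands: the EGR site GCGNGGGCG, the cyclic AMP response element TGACGTCA, the CArG box that SRF binds, and the NF-kB site. Among 32851 promoter windows of the same length, 5.55% held the EGR site, 1.79% the cyclic AMP element, 1.63% a CArG box and 8.46% an NF-kB site.
Egr2 (chr10:67537619-67537918, plus strand): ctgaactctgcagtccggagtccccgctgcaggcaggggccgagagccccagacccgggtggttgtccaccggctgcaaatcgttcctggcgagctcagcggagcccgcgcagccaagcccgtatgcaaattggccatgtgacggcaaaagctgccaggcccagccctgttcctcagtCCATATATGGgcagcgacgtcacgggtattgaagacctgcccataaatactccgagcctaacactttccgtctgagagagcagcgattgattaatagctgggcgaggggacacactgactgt
Egr2, start site upstream (chr10:67537316-67537615, plus strand): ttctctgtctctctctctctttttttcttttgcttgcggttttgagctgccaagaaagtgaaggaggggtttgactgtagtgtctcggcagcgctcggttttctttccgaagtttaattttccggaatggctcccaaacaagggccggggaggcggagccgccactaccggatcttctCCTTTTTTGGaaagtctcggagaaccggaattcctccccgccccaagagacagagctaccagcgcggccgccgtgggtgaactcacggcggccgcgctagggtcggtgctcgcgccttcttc
Nab1 (chr1:52500399-52500698, minus strand): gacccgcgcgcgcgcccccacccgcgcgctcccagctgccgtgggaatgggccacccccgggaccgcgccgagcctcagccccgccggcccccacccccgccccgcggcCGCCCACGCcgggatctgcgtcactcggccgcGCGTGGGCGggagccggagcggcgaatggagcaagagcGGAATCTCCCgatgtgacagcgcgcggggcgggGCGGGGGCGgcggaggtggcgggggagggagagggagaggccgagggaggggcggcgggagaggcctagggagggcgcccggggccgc
Ier3 (chr17:35821463-35821762, plus strand): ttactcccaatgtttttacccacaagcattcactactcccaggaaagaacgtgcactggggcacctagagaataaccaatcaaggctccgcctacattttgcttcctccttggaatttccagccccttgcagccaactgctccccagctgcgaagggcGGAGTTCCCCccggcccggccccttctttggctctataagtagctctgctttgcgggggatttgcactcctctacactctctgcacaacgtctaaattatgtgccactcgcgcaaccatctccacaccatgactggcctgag
Both printed Egr2 windows held 1 CArG box, from -72 to -63 with the start site at 0, and each reads as a CArG box on either strand. A further Egr2 window, at the annotated start of the gene (chr10:67535249-67535548), held NF-kB sites from -117 to -107 and no CArG box. The Nab1 window held 3 EGR sites, from -141 to -133, from -109 to -101 and from -38 to -30, and 1 NF-kB site. The Ier3 window held 1 NF-kB site, from -92 to -83. The Nab2 window held none of the 4 motifs, and no printed window held the cyclic AMP element. A match is a description of the letters and was not tested as a binding site.

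Ier2 was the most abundant member in both libraries, and Egr2 the least. Counts of 3′ tags do not scale with transcript length to a first order, so levels in CPM (UMIs of a gene per 1000000 UMIs) can be set side by side. Ier2 stood at 537 CPM in WT and 684 CPM in Pac1-/-. Egr1 stood at 219 CPM in WT (interval 215 to 223) and 173 CPM in Pac1-/- (170 to 177). Egr3 stood at 108 CPM in WT and 73.8 CPM in Pac1-/-. Among the Egr genes, the level of Egr1 was thus the highest and that of Egr2 the lowest in both libraries. Egr2 was counted at 10.7 CPM in WT (9.87 to 11.6) and 5.31 CPM in Pac1-/- (4.74 to 5.94). Egr4, a further gene of the family, had 8 UMIs in WT and 9 in Pac1-/-. Nab1 was counted at 68.2 CPM and 59.2 CPM, and Nab2 at 24.2 CPM and 22.7 CPM. Nab1 was therefore the more abundant corepressor in both libraries. Ier3 was counted at 12.2 CPM in WT (11.3 to 13.2) and 16.4 CPM in Pac1-/- (15.4 to 17.5). The WT intervals of Ier3 and Egr2 overlapped, and all other neighbours in the order of levels had intervals apart in both libraries.

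**Figure D1:**
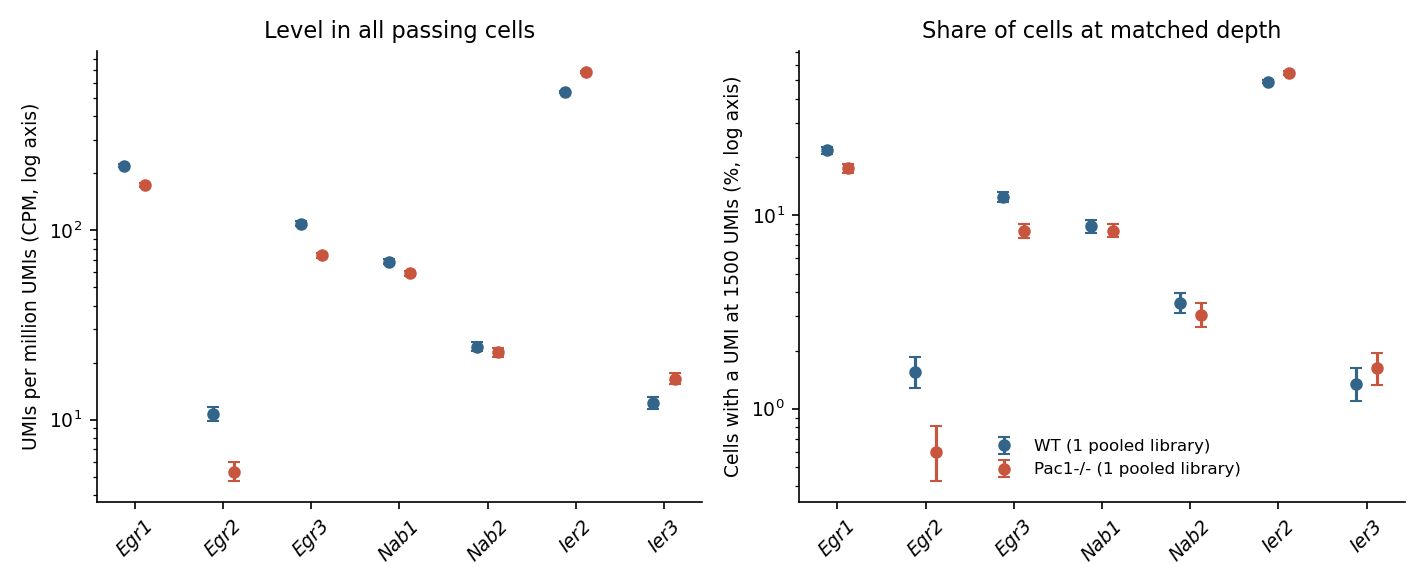
Levels of the 7 members in the WT and Pac1-/- libraries, in CPM (left) and as the share of cells with a UMI after thinning to 1500 UMIs (right), both on log axes, with exact 95% intervals. The 3 Egr genes sat lower in Pac1-/- in both panels and Ier2 sat higher.

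At 1500 UMIs per cell, Ier2 was found in 49.2% of WT cells and 54.4% of Pac1-/- cells (76.0% and 83.5% without thinning). Egr1 was found in 21.7% and 17.6% (42.9% and 41.4% without thinning), and Egr3 in 12.5% and 8.30% (31.6% and 27.8%). The difference in Egr1 was thus wider at matched depth than without thinning. Nab1 was found in 8.78% and 8.35% of cells, Nab2 in 3.54% and 3.06%, Egr2 in 1.55% and 0.594%, and Ier3 in 1.34% and 1.61%. Hba-a1, a hemoglobin gene of red cells, stood in 2.97% of the WT cells and 7.40% of the Pac1-/- cells, and the club cell gene Scgb1a1 in 2.31% and 3.46%, so free RNA reached shares of this size. Single cells with a UMI of Egr2, Nab2 or Ier3 could therefore not be told from cells that had caught free RNA. In Pac1-/- the interval of Hba-a1 (6.78% to 8.06%) also overlapped those of Nab1 (7.69% to 9.04%) and Egr3 (7.65% to 9.0%), so the same limit holds there for their co-detection and status values. The Hba-a1 interval there also overlapped those of Il2 (6.58% to 7.84%) and Tnf (7.78% to 9.14%). The same limit thus holds for Pac1-/- cells split by Il2 or Tnf. Barcodes with at least 2 B cell markers (68 in WT, 137 in Pac1-/- at this depth) held Egr1 in 20.6% and 25.5% and Ier2 in 44.1% and 56.2%, and no cell type that lacks these genes was present for comparison.

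Most cells showed none or 1 of the members at this depth. None of the 7 stood in 31.6% of the WT cells and 32.1% of the Pac1-/- cells, 1 in 42.9% and 45.9%, 2 in 21.1% and 18.2%, and 3 in 3.98% and 3.60%. No cell held more than 5. All 3 Egr genes were found in 8 WT and 3 Pac1-/- cells, and exactly 2 of them in 3.67% of WT and 1.98% of Pac1-/- cells.

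Between the libraries, Egr2 and Egr3 were lower in Pac1-/- by 1.5-fold or more and no member was higher by that fold. The log2 ratio of CPM, Pac1-/- over WT, was read relative to the median of 12425 genes with at least 50 UMIs, which was itself 0.19. The relative log2 ratio was -1.20 for Egr2 (interval -1.40 to -1.0) and -0.74 for Egr3 (-0.80 to -0.68). Without scaling to the median gene Egr3 stood at -0.55, inside the fold, and Egr2 alone was called. Egr1 stood just inside the fold at -0.53 (-0.56 to -0.49). The intervals of all 7 members left the median gene, 5 below and 2 above it, as did those of 35.5% of all genes below and 32.9% above, so that this is no result about the members. Nab1 stood at -0.39, Nab2 at -0.28, Ier2 at 0.16 and Ier3 at 0.24. Over all 12425 genes, 12.8% were lower and 8.2% higher by 1.5-fold, so that 2 of 7 members stood against a background of about 1 gene in 8 for lower values, which is no result about the members as a group. The median relative log2 ratio of the 7 members was -0.39.

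Among cells with none of 3 effector transcripts, all 3 Egr genes had lower shares in Pac1-/- by more than counting error, and in the smaller classes fewer differences reached that size. Cells were split by a UMI of Il2, Tnf or Il5 at 1500 UMIs, and 4 of the classes (none of the 3, Il2 alone, Tnf alone, Il5 alone) had at least 100 cells in both libraries. By the shares alone, Egr1, Egr2 and Egr3 each stood lower in Pac1-/- in 4 of 4 classes, and Ier2 higher in 4 of 4. The intervals of these 4 genes were apart in cells with none of the transcripts, those of Egr3 and Ier2 also in cells with Il5 alone, and all others overlapped. Of 7773 genes found in at least 1% of cells, which leave out Egr2, 14.9% were lower and 28.9% higher in all 4 classes, and in cells with none of the transcripts 12.2% were lower and 24.1% higher with intervals apart. In cells with none of the 3 transcripts, the share with Egr1 was 23.4% in WT and 18.0% in Pac1-/-, and the share with Egr3 12.1% and 8.22%. In cells with Il5 alone, Egr1 was found in 17.0% (15.4% to 18.6%) and 14.7% (12.7% to 16.9%), and Egr3 in 11.2% (9.90% to 12.6%) and 7.21% (5.76% to 8.89%). The share of Nab1 was lower in Pac1-/- in 2 of the 4 classes, that of Nab2 in 3 and that of Ier3 in 1.

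The difference in Ier3 rested on few barcodes. In Pac1-/- 3 barcodes held 103, 59 and 39 Ier3 UMIs, together 21.0% of all 959, and in WT the 3 richest held 8.83% of 668. The richest Pac1-/- barcode held 4 UMIs of Pecam1 and 5 of Cdh5, markers of endothelial cells, and none of Il1rl1 or Gata3. Barcodes with markers of another cell type held 34.2% of the Ier3 UMIs in Pac1-/- and 13.5% in WT, whereas they held 10.1% and 4.83% of all UMIs. Without the 3 richest barcodes of each library, an alternative chosen after these values were seen, the relative log2 ratio of Ier3 was 0.03 (-0.12 to 0.19), and without all barcodes with markers of another type it was -0.07 (-0.24 to 0.09). With each cell thinned to 1500 UMIs it was 0.79, past the fold. The ratios of the 3 Egr genes moved little without those barcodes, to -0.54 for Egr1, -1.22 for Egr2 and -0.76 for Egr3.

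**Figure D2:**
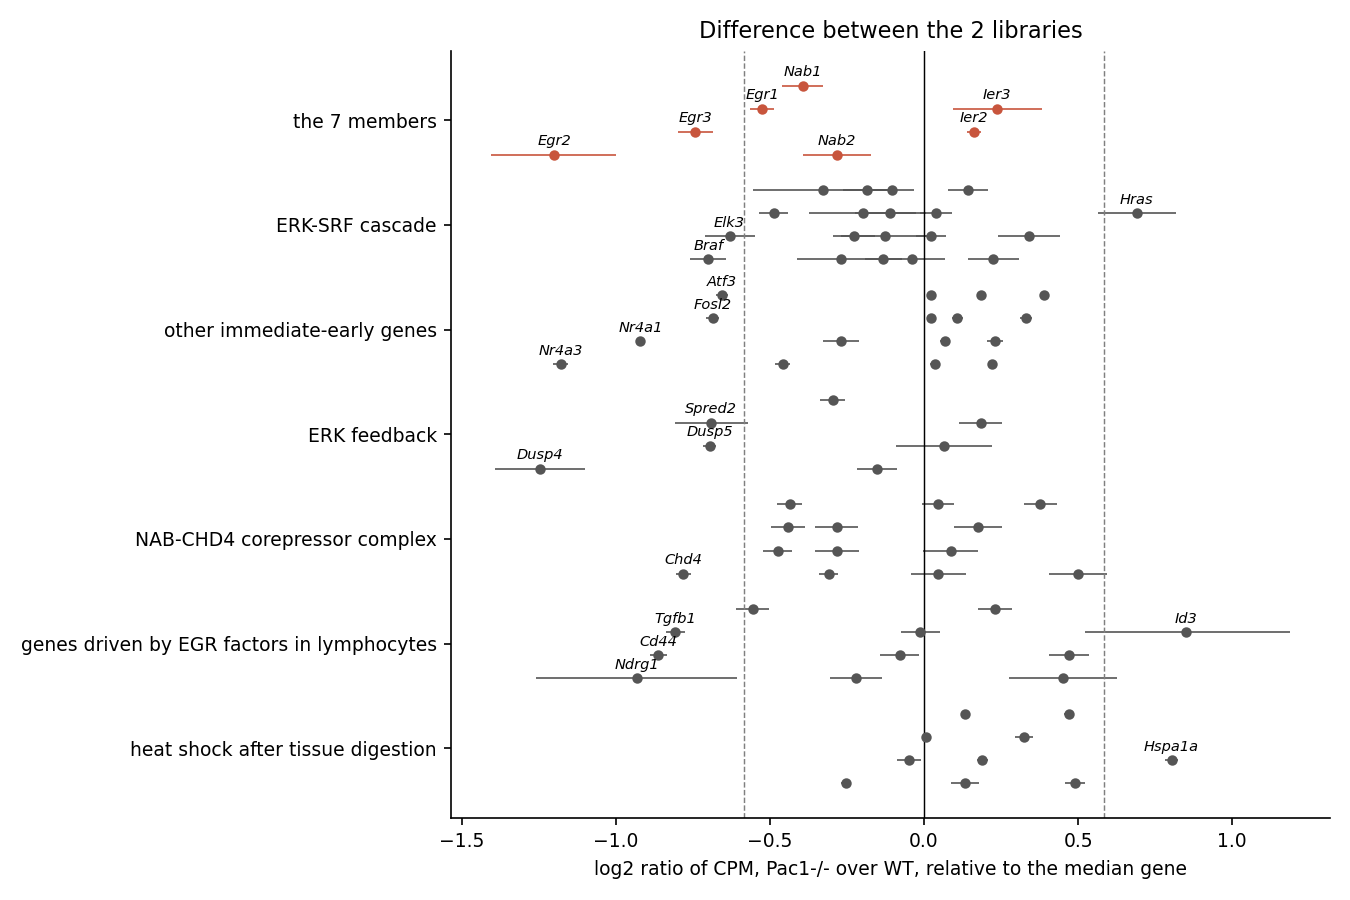
Relative log2 ratio of each member (top row) and of each tested gene of 6 related lists, Pac1-/- over WT, with exact 95% counting intervals. Dashed lines mark 1.5-fold, genes past it are named, and Dusp2 lies off the axis. Egr2 (-1.20) lies near Nr4a3 (-1.18) and Dusp4 (-1.25).

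The genes of the pathway around the members were compared from lists of fixed membership, whose counts stand beside the 12.8% of all genes that were lower and the 8.2% that were higher by the fold. Of 19 genes of the ERK-SRF cascade, which leads to Egr transcription, 2 were lower and 1 higher by 1.5-fold, with a median relative log2 ratio of -0.13. The lower ones were the kinase gene Braf (102 CPM in WT and 71.2 CPM in Pac1-/-) and Elk3 (51.4 and 37.8 CPM), a partner of SRF, and the higher one was the GTPase gene Hras (13.9 and 25.6 CPM). Srf itself stood at 9.67 and 9.60 CPM. The transcripts of this cascade therefore did not move in 1 direction.

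Of 8 genes of ERK feedback, 4 were lower and none was higher by the fold. They were Dusp2, the deleted gene, the phosphatase genes Dusp4 (21.1 CPM in WT and 10.1 CPM in Pac1-/-) and Dusp5 (720 and 506 CPM), and Spred2 (24.7 and 17.4 CPM), an inhibitor of RAS signaling. Dusp2 was lower by the design, and it counts among the 4 and in the median relative log2 ratio of this list, which was -0.49. Of 16 other immediate-early genes tested, 4 were lower and none was higher. These were the orphan receptor genes Nr4a1 (1882 and 1133 CPM) and Nr4a3 (706 and 355 CPM), and the AP-1 family genes Fosl2 (740 and 524 CPM) and Atf3 (880 and 636 CPM). Other genes of that family in the list (Fos, Fosb, Jun, Junb and Jund) lay above the median gene, at relative log2 ratios of 0.02 (Junb) to 0.39 (Jund), so the family did not move in 1 direction. The list thus divided, with 10 genes above the median gene and 6 below it and a median relative log2 ratio of 0.03. Of the members 2 lay above the median gene and 5 below it, with a median of -0.39.

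Of 13 genes of the NAB-CHD4 corepressor complex, Chd4, the remodeling enzyme that NAB2 recruits, was lower (642 CPM in WT and 425 CPM in Pac1-/-) and none was higher by the fold, with a median of -0.28. Of 11 tested genes described as driven by EGR factors in lymphocytes, 3 were lower and 1 was higher. The lower ones were Cd44, an adhesion receptor gene (501 and 314 CPM), the cytokine gene Tgfb1 (372 and 242 CPM) and Ndrg1, an anergy factor gene (3.76 and 2.25 CPM), and the higher one was Id3 (2.05 and 4.22 CPM). Fasl and Lag3, of the same list, had under 50 UMIs. Of 10 heat shock genes, a sign of tissue digestion, Hspa1a was higher (503 CPM in WT and 1000 CPM in Pac1-/-), 8 of 10 lay above the median gene, and their summed level was 7824 CPM in WT and 10038 CPM in Pac1-/-. Their part in the differences of the members was not tested.

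Cells with Egr1 were more often cells with Egr3 and Ier2. At 1500 UMIs, Egr3 was found in 15.3% of WT cells with Egr1 and 11.7% of those without, and in 10.8% and 7.78% in Pac1-/-. Ier2 was found in 56.2% of WT cells with Egr1 and 47.3% of those without, and in 62.8% and 52.7% in Pac1-/-. Among WT cells with Egr3 Ier2 was found in 55.4% against 48.3%, and in Pac1-/- in 63.7% against 53.6%. In these 3 pairs the exact intervals of the shares were apart in both libraries, in both directions of reading, and in the 18 other pairs they were not. Over 20 repeated random thinnings, the intervals were apart in both libraries in 20 for Ier2 by Egr1, in 16 for Ier2 by Egr3 and in 13 for Egr3 by Egr1, and all 3 ratios stayed above 1. The share ratio (share with over share without) was 1.31 and 1.38 for Egr3 by Egr1, and 1.19 in both libraries for Ier2 by Egr1. The rule of non-overlapping intervals was added after the values were seen, and abundant genes pass it more easily. Of 7773 genes found in at least 1% of cells, 0.322% had a higher share in cells with Egr1 by that rule and 0.0515% a lower one. The like shares of all genes for cells split by Egr3 or Ier2 are not given here. The count of 3 pairs therefore has no full background.

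By the other rule, a share ratio of 1.5 in both libraries and in both directions, 1 of 21 pairs passed. This was Egr2 with Ier3, at a smallest ratio of 1.59, on 3 WT cells and 1 Pac1-/- cell that held both, too few to describe cells. It did not pass with predicted doublets removed, and over 20 repeated random thinnings the number of pairs that passed was 0 or 1. The share of all genes at 1.5 times in both libraries was 0.129% for cells with Egr1, 3.49% with Egr2, 0.154% with Egr3, 0.244% with Nab1, 0.746% with Nab2, 0.0257% with Ier2 and 2.19% with Ier3. The rarer the gene that split the cells, the more genes passed, and the pair of Egr2 and Ier3 is read against the larger of these shares.

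The corepressors were not found more often in cells with Egr1 by more than counting error. Nab1 was found in 7.54% of WT cells with Egr1 and 9.12% of those without, and in 7.81% and 8.46% in Pac1-/-. Nab2 was found in 3.20% and 3.63% in WT, and in 2.86% and 3.1% in Pac1-/-. In the draw shown all 4 ratios lay under 1, and their intervals overlapped. Over the 20 repeated thinnings Nab1 by Egr1 ran from 0.73 to 0.96 in WT and from 0.79 to 1.04 in Pac1-/-. Its intervals were apart, with the lower share in cells with Egr1, in 5 of them in WT and in 0 in Pac1-/-. Over 8 settings at matched depth Nab2 by Egr1 ran from 0.65 to 1.24 in WT and from 0.82 to 1.05 in Pac1-/-. With Egr3, Nab1 had ratios of 0.81 in WT and 0.99 in Pac1-/-, and Nab2 of 1.15 and 1.36, whereas the medians of the 20 repeated thinnings were 0.98 and 1.02 for Nab1 and 0.97 and 1.21 for Nab2. Nab1 and Nab2 were found together in 22 WT cells (3.28% of cells with Nab1 held Nab2, against 3.56% without) and in 27 Pac1-/- cells (4.93% against 2.89%). These values moved with the random draw: over the repeated thinnings the ratio of Nab2 by Nab1 had a median of 1.09 in WT (0.61 to 1.71) and 1.29 in Pac1-/- (0.94 to 1.61), so no difference in direction between the libraries is read.

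**Figure D3:**
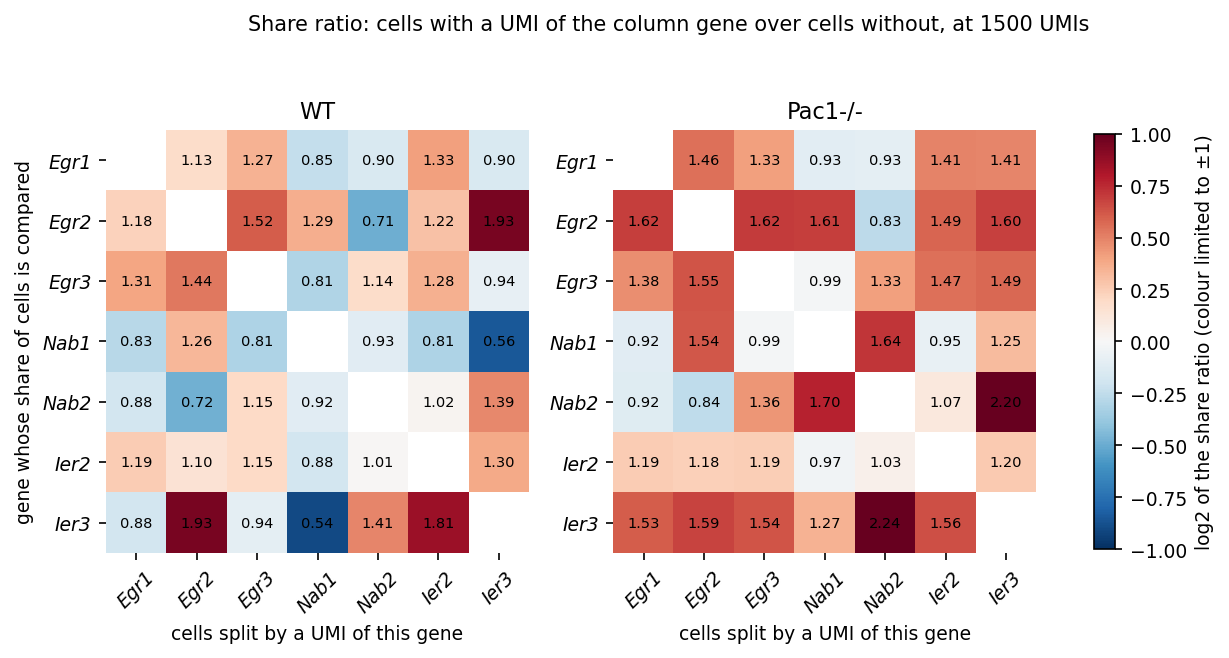
Share ratio for each pair of members in WT (left) and Pac1-/- (right) at 1500 UMIs: the share of cells with the row gene among cells with the column gene, over its share among cells without. The block of Egr1, Egr3 and Ier2 lies above 1 in both libraries, and Nab1 with Egr1 below 1. Rows and columns of Egr2 and Ier3 rest on few cells.

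Across genes in at least 1% of cells, those most alike to each member were ranked by the smaller of the 2 libraries' share ratios, over 7634 WT and 6564 Pac1-/- cells that share a library and its free RNA, with the 7 members themselves left out of the ranking. For Egr1 they were Mt1 (smaller ratio 2.01), a metallothionein gene induced by metal and stress, Gnb4 (1.77), Gm26802 (1.74), Ints4 (1.68) and Vps45 (1.60). Gm26802, a noncoding RNA, was found in 7.48% of WT cells with Egr1 and 4.30% without, and in 9.19% and 5.06% in Pac1-/-. It lies 1926 bases downstream of Fosb on the same strand. For Ier2 they were Fam71a (1.64), 2700049A03Rik (1.48), Gm26802 (1.47), Ahdc1 (1.43) and Ptger2 (1.41), a prostaglandin receptor gene. With the members counted, Ier3 (1.56) would stand at rank 2 for Ier2. Fam71a lies 5479 bases downstream of Atf3 on the same strand. The genes that ranked high for Egr1 and Ier2 thus included 2 that follow another immediate-early gene on its strand, and reads past the end of that gene were not tested.

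For Egr3 the most alike genes were Anxa4 (1.78), Rida (1.66), Ncdn (1.64), Tpp1 (1.62) and Primpol (1.62). For Nab1 they were Pak1 (1.95), a kinase gene, Plac8 (1.84), Zfp653 (1.79), Zc3hav1l (1.78) and Tinf2 (1.77). Pak1 was found in 6.27% of WT cells with Nab1 and 3.22% without, and in 3.83% and 1.63% in Pac1-/-. Most of these genes were found in a few percent of cells. For Nab2 they were Thumpd2 (2.40), Idua (2.04), Irf5 (2.0), Mettl14 (1.96) and Slc25a30 (1.93). For Egr2 they were Ccdc88a (3.25), Dgcr8 (3.12), Tmem106c (2.98), Dcun1d3 (2.85) and Slc26a2 (2.68), and for Ier3 Haus7 (2.70), Hist1h2be (2.58), Olfr48 (2.38), Carf (2.31) and Cystm1 (2.30). Only 118 WT and 39 Pac1-/- cells held Egr2, and 102 and 106 held Ier3, so these last names rest on a handful of cells each.

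Cells with the type 2 cytokine transcript Il5 held Nab1 more often and Egr1 less often in both libraries, the latter in a split in which most genes were found less often. In WT 32.8% of cells held Il5, and in Pac1-/- 19.8%, at 1500 UMIs. Egr1 was found in 17.9% of WT cells with Il5 and 23.5% of those without, and in 14.5% and 18.3% in Pac1-/-. As a level at this depth, Egr1 stood at 163 CPM with Il5 and 260 CPM without in WT, and at 126 and 192 CPM in Pac1-/-. Ier2 was found in 43.8% and 51.9% of WT cells, and in 50.2% and 55.5% of Pac1-/- cells. Nab1 was found in 10.8% of WT cells with Il5 and 7.79% of those without, and in 12.2% and 7.39% in Pac1-/-. For these 3 members the intervals were apart in both libraries. Over the 20 repeated thinnings they were apart in both libraries in 20 for Nab1 and in 16 for Egr1 but in only 3 for Ier2, whose ratio in Pac1-/- ran from 0.91 to 1.0, so the difference of Ier2 in Pac1-/- rested on the draw. By that rule 5.35% of all genes had a higher share in cells with Il5 and 4.23% a lower one, so that 3 of 7 members stood against 1 gene in about 10 for both directions together. The median gene itself had a share ratio by Il5 of 0.90 in WT and 0.89 in Pac1-/-. Against that, Egr1 (0.76 and 0.79) lay lower by less than its distance from 1, and Ier2 (0.84 and 0.90) lay near the median gene. Ranked from the top by the smaller ratio of the libraries, Nab1 stood at 195, Ier2 at 3563 and Egr1 at 4971 of 7773 genes.

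Nab2 had higher shares with Il5, at 4.16% against 3.23% in WT and 4.46% against 2.72% in Pac1-/-, with intervals that overlapped in WT. Over the 20 repeated thinnings the Nab2 intervals were apart in 7 in WT, in 9 in Pac1-/- and in 2 in both libraries. Egr3 was found in 11.9% and 12.7% in WT and in 7.01% and 8.62% in Pac1-/-, with overlapping intervals. No member reached a share ratio of 1.5 by Il5 in both libraries, where 1.51% of all genes did. Cells with Il5 were deeper before thinning, with a median of 5597 UMIs against 4150 in WT and 7531 against 5595 in Pac1-/-. Without thinning the direction of Egr1 turned: it was found in 46.9% of WT cells with Il5 and 38.3% without, and in 48.6% and 36.7% in Pac1-/-. Over the 9 settings at matched depth, the ratio of Egr1 by Il5 lay between 0.57 and 0.84 in WT and between 0.65 and 0.86 in Pac1-/-. That of Nab1 lay between 1.36 and 1.69 in WT and between 1.31 and 1.90 in Pac1-/-.

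In the thinning shown, the share of cells with Il5 was lower in each class with more Egr1 UMIs. In WT, Il5 was found in 34.3% of cells with no Egr1 UMI, 30.1% with 1, 24.0% with 2 and 15.5% with 3 or more. In Pac1-/- the shares were 20.5%, 18.7%, 13.1% and 8.03%. The intervals of the first and last classes were apart in WT (33.1% to 35.6% and 10.9% to 21.1%) and in Pac1-/- (19.4% to 21.6% and 4.08% to 13.9%). Among neighbouring classes, only those of 0 and 1 Egr1 UMI in WT had Il5 intervals apart. The share of all genes with such a run is not given here. Ier2 ran the other way, from 47.3% to 63.4% in WT and from 52.7% to 70.1% in Pac1-/-. The last class held 213 WT and 137 Pac1-/- cells, with original medians of 4312 and 5318 UMIs, near those of cells with no Egr1 UMI (4430 and 5765). Egr1 was found in 28.1% of 217 WT cells with both Tnf and Il5 (22.2% to 34.6%) and in 17.0% of 2122 with Il5 alone (15.4% to 18.6%). The Pac1-/- class with both transcripts held fewer than 100 cells. These are values of 1 gene in 1 library and 1 thinning, and the share of all genes that differ between the classes is not given here.

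**Figure D4:**
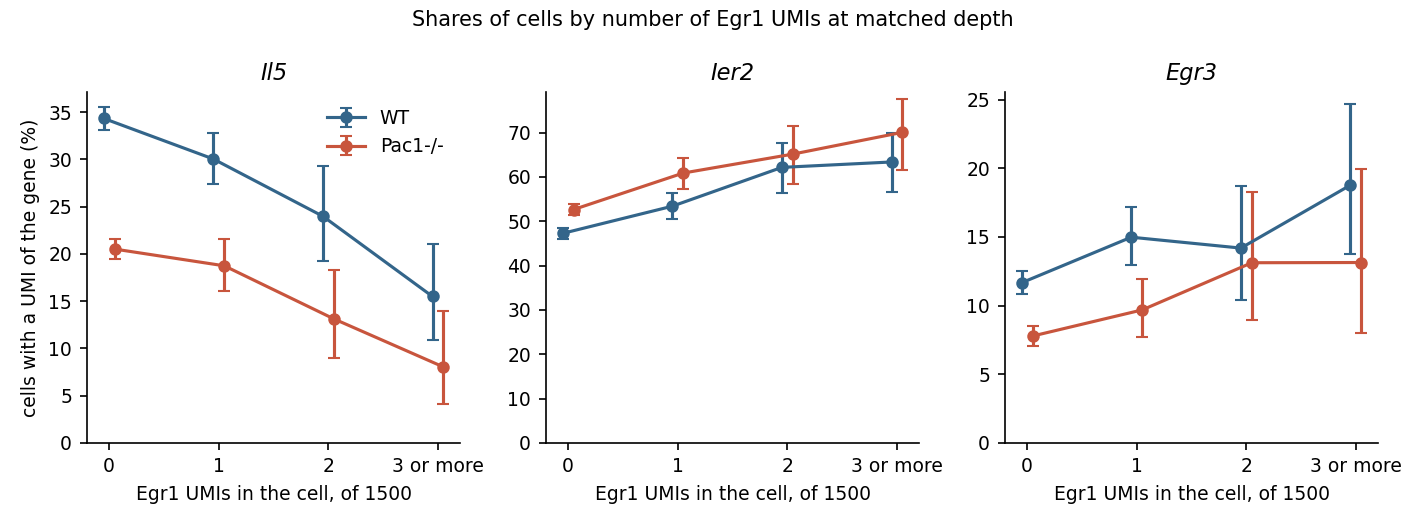
Share of cells with a UMI of Il5, Ier2 and Egr3 by the number of Egr1 UMIs among 1500, with exact 95% intervals, in WT and Pac1-/-. Over the 4 classes the Il5 share runs from 34.3% to 15.5% in WT and from 20.5% to 8.03% in Pac1-/-, and the Ier2 share from 47.3% to 63.4% and from 52.7% to 70.1%.

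Cells with Tnf, a cytokine gene for which EGR1 is a known activator, held Ier2 more often. Of the WT cells 12.2% held Tnf, and of the Pac1-/- cells 8.44%, a share whose interval overlapped that of the free RNA of Hba-a1. Ier2 was found in 54.5% of WT cells with Tnf and 48.5% of those without, and in 60.8% and 53.8% in Pac1-/-, with intervals apart in both, as in 13 of the 20 repeated thinnings. Egr1 was found in 25.0% and 21.2% in WT and in 19.9% and 17.4% in Pac1-/-, and Egr3 in 15.5% and 12% in WT and in 11% and 8.05% in Pac1-/-. These 2 members had higher shares with Tnf in both libraries, with intervals that overlapped in Pac1-/- in the draw shown. Over the 20 repeated thinnings the Pac1-/- intervals were apart in 14 for Egr1 and in 5 for Egr3, and those of both libraries in 7 and in 4. Nab1 ran the other way, at 5.13% with Tnf and 9.28% without in WT and at 6.86% and 8.49% in Pac1-/-, where the intervals overlapped, and they were apart in both libraries in 2 of the 20 repeated thinnings. Egr2 was the 1 member past a share ratio of 1.5 by Tnf (1.55 in WT and 1.97 in Pac1-/-), on 21 and 6 cells. It was under 1.5 in at least 1 library in 7 of the 8 other settings at matched depth. Of 7773 genes, which leave out the rarer Egr2, 0.244% passed. Over the 20 repeated thinnings its ratio had a median of 1.27 in WT (0.79 to 1.75) and 1.25 in Pac1-/- (0.75 to 3.03). The intervals of Egr2 by Tnf were apart in both libraries in 0 of them. By non-overlapping intervals 0.412% of genes were higher and 0.18% lower with Tnf.

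Cells with Il2 held Ier2 more often in the draw shown. Of the WT cells 7.32% held Il2, and of the Pac1-/- cells 7.19%, a share whose interval overlapped that of the free RNA of Hba-a1. Ier2 was found in 56.4% of WT cells with Il2 and 48.7% of those without, and in 60.4% and 54.0% in Pac1-/-, with intervals apart in both, which held in 7 of the 20 repeated thinnings. Egr1 was found in 22% and 21.7% in WT and in 16.9% and 17.6% in Pac1-/-, with overlapping intervals. The Pac1-/- ratio of this draw (0.96) lay below those of the 20 repeated thinnings (1.02 to 1.38, median 1.14), and the WT repeats ran from 0.95 to 1.23 (median 1.09). The intervals of Egr1 by Il2 were apart in both libraries in 0 of the repeats. Egr3 was found in 15.4% and 12.2% in WT and in 8.47% and 8.29% in Pac1-/-, where the ratio of 1.02 also lay below all of the repeats (1.03 to 1.53, median 1.30). Nab2 was found in 1.79% and 3.67% in WT, on 10 cells with both, and in 2.54% and 3.1% in Pac1-/-. No member reached a ratio of 1.5 by Il2 in both libraries, where 0.296% of all genes did, and by non-overlapping intervals 0.154% of genes were higher and 0% lower. Over the repeated thinnings the ratio of Egr1 stayed above 1 with Tnf and below 1 with Il5 in both libraries, where the median gene had ratios of 1.02 and 1.0 with Tnf and of 0.90 and 0.89 with Il5, and with Il2 it crossed 1 in WT.

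**Figure D5:**
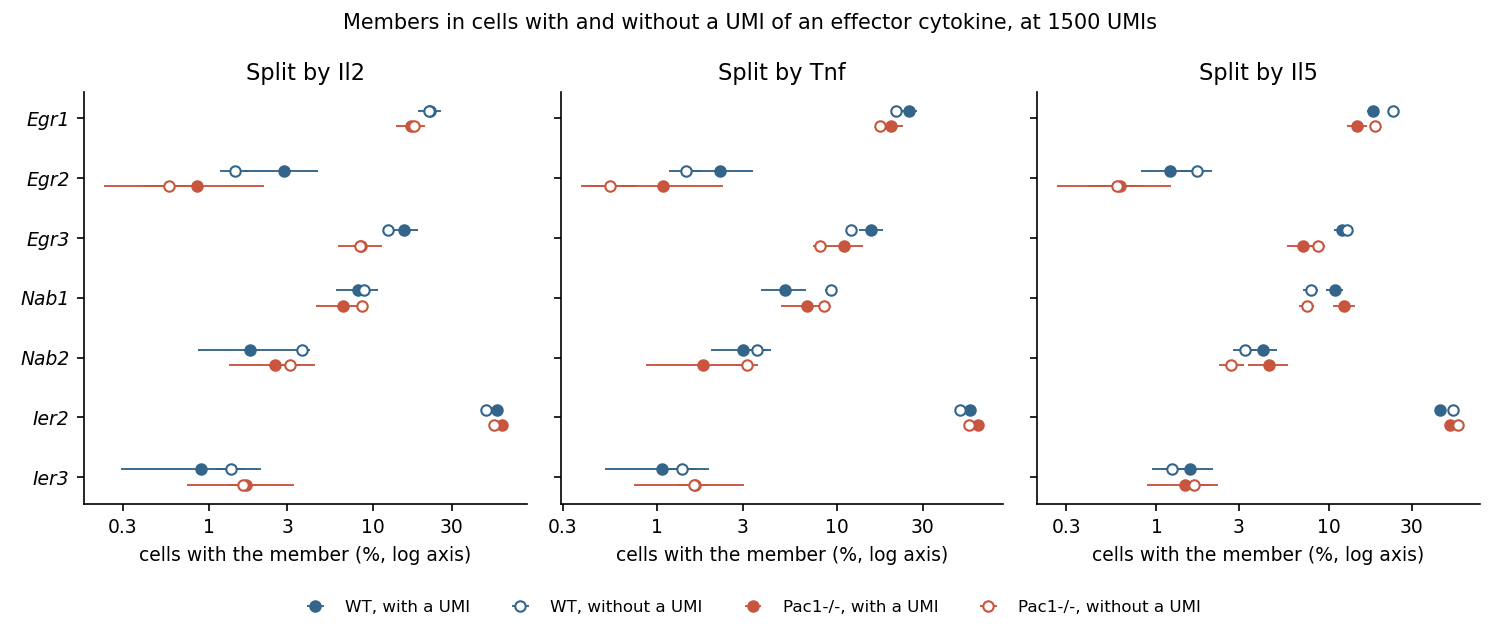
Share of cells with each member among cells with (filled) and without (open) a UMI of Il2, Tnf or Il5, at 1500 UMIs, on log axes with exact 95% intervals, in WT and Pac1-/-. With Il5, Egr1 and Ier2 lie lower and Nab1 higher in both libraries in the thinning shown.

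The share of WT cells with Dusp2 was 3.26% among those with Egr1 (2.46% to 4.23%) and 3.08% among those without (2.66% to 3.55%), and it was found in 3.08%, 3.31%, 2.70% and 3.76% of cells with 0, 1, 2 and 3 or more Egr1 UMIs. With Egr3 the shares were 3.89% and 3.01%, and with Ier2 3.35% and 2.89%, with intervals that overlapped. Among WT cells with Egr2 Dusp2 was found in 9 of 118 (7.63%, 3.55% to 13.99%) and in 3.05% of the rest (2.67% to 3.46%), from 1 thinning that was not repeated for Dusp2. Of 7774 genes, 3.49% reached 1.5 times with Egr2, a share for both libraries and not for WT alone. The WT interval of Dusp2 (2.74% to 3.53%) overlapped that of Hba-a1 (2.60% to 3.38%). Single WT cells with Dusp2 or Egr2 could therefore not be told from cells that had caught free RNA.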

How the data were processed

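Lung ILC2s of 1 WT and 1 Pac1-/- pool were profiled with 10x Genomics 3′ chemistry (v3.1). The matrices hold raw UMI counts as the authors deposited them, from Cell Ranger runs against mm10 and with no normalization. The labels name version 6.1.1 and the file headers 4.0.0, and the annotation release is not given in the sources used here. The study's methods give no cell filter that could be rerun, so cell numbers differ from the study's. No column of other samples was present.

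The analysis used scikit-learn 1.9.0, matplotlib 3.10.9, pandas 2.3.3, scipy 1.17.1 and numpy 2.4.6 under Python 3.11.15. Cells had at least 500 genes and at most 10% mitochondrial UMIs. Predicted doublets (730 WT, 538 Pac1-/-) were kept, and removed as an alternative. Levels were CPM from summed counts, and shares of cells were taken after 1 seeded thinning to 1500 UMIs, which was repeated 20 times as a check. A share ratio compares cells with and without a UMI of another gene. Calls needed 1.5-fold between libraries, or a share ratio of 1.5 in both libraries. The ratio between libraries and the share ratio after thinning were tested on simulated data, and the other steps were not. Gene models (GENCODE) matched 99.8% of gene identifiers. Alternatives changed the cell filter, doublets, barcodes of other types, depth, scaling and thresholds. Named genes were the 7 members, the 5 other genes most alike to each (members left out), and list genes past 1.5-fold; Srf, the AP-1 genes, Fasl and Lag3 were named outside this rule, after their values were seen. The members and lists were chosen with earlier results of these data known, and the rule of non-overlapping intervals and the removal of barcodes rich in Ier3 were added after the values were seen. With 1 library per genotype, no test of genotype was possible. A result for 1 gene of the lists is not reported here.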

Additional observations from a re-analysis of the deposited data

Results flagged for a closer look

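Barcodes that failed the filter were used in no comparison and held 1603031 UMIs in WT and 1944399 in Pac1-/-. Ier2 stood there at 464 CPM in WT (431 to 499) and 669 CPM in Pac1-/- (633 to 706), so the interval of Pac1-/- lay above that of WT, as in the passing cells. No other member was higher there in Pac1-/- beyond its interval, and Egr2 was lower, at 16.2 CPM in WT (10.6 to 23.8) and 4.63 CPM in Pac1-/- (2.12 to 8.79). Of 63 share ratios compared between the libraries, 13 lay on opposite sides of 1, and in 0 of them did both counting intervals leave 1, so no difference in direction was marked. With 1 library per genotype, the spread between samples could not be examined.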

How the results depend on the processing

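No paired analysis was possible because each genotype had 1 library. Counts of calls moved as follows, and the cause was not tested unless the setting itself shows it. Between the libraries, 1 member in place of 2 was called as counted with no scaling to the median gene, and 1 at 2-fold (Egr2 in both). With each cell thinned to 1500 UMIs 3 were called, since Ier3 then stood at 0.79 and was higher in Pac1-/- by the fold. For pairs, 0 in place of 1 were called with predicted doublets removed, at 3000 UMIs and at a ratio of 2, 9 without thinning, and 3 by non-overlapping intervals. By Il2, 1 in place of 0 was called with doublets removed, with barcodes of other types removed and by non-overlapping intervals, and 6 without thinning. By Tnf, 0 in place of 1 were called under the stricter cell filter, with doublets, high-UMI barcodes or barcodes of other types removed, at 1000 and 3000 UMIs, at a ratio of 2 and with status from all UMIs, and 5 without thinning. By Il5, 1 in place of 0 was called at 1000 UMIs and in cells of middle depth, 3 by non-overlapping intervals and 5 without thinning. Without thinning, deeper cells show more of every gene.

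Of 1233 single values recomputed, 1036 stayed within their interval, 174 moved and 23 turned direction from a ratio at least 1.5-fold away from 1, all of the latter on rare members or without thinning. Ratios nearer to 1 that crossed it are counted with those that stayed or moved. Nab1 by Egr2 in Pac1-/- turned to 0.857 without high-UMI barcodes, 0.999 without barcodes of other types, 0.532 at 1000 UMIs and 0.93 at 3000, and Egr2 by Nab1 to 0.848, 0.999, 0.52 and 0.92. At 1000 UMIs Ier3 by Nab2 and Nab2 by Ier3 in Pac1-/- turned to 0.612 and 0.614, and Egr2 and Ier3 by Il2 in WT to 0.448 and 1.27. At 3000 UMIs Ier3 by Ier2 in WT turned to 0.952, and in Pac1-/- Ier3 by Egr3 to 0.997 and Ier3 by Nab2 and Nab2 by Ier3 to 0.996. Without thinning the values in WT were 1.77 for Ier3 by Nab1, 1.5 for Nab1 by Ier3, 1.83 and 1.96 for Nab2 and Ier3 by Il2 and 1.40 for Nab1 by Tnf, and in Pac1-/- 1.79 for Nab2 by Tnf. In cells of middle depth Ier3 by Egr1 in Pac1-/- was 0.952. The relative log2 ratio kept its sign in every setting for Egr1 (-0.58 to -0.34), Egr2 (-1.52 to -1.01), Egr3 (-0.78 to -0.55), Nab1, Nab2 and Ier2, and not for Ier3 (-0.07 to 0.79).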

Other observations

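Cells with Nab1 were also described by the type 2 cytokine Il13, which was found in 18.4% of WT cells with Nab1 and 13.8% of those without, and in 12.96% and 8.79% in Pac1-/-, with intervals apart in both libraries in the thinning used. In cells with Egr1, Il13 was found in 13.4% and 14.4% in WT and in 7.63% and 9.46% in Pac1-/-, and the intervals overlapped. These values were not part of the comparisons above. For cells with Nab1, the share of all genes with intervals apart is not given here, and neither are repeated thinnings of Il13.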
